A study of Saccharomyces cerevisiae with 36 samples.

Results

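The genes described here are the 10 genes of Saccharomyces cerevisiae that were listed by name as those for the synthesis and uptake of thiamine, vitamin B1: THI4 (YGR144W), THI5 (YFL058W), THI11 (YJR156C), THI12 (YNL332W), THI13 (YDL244W), THI20 (YOL055C), THI21 (YPL258C), THI22 (YPR121W), THI7 (YLR237W) and PHO3 (YBR092C). They were taken by gene identifier from the 6717 genes of the count tables. Of the 10, 8 held enough reads to be tested, and THI5 and THI12 did not.

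The libraries came from a dominant (strain 12) and a non-dominant (strain 11) wine strain, grown alone (single culture) or together (mixed culture) in natural Nebbiolo must at 25 °C with shaking. Each strain carried an integrated fluorescent protein, GFP or eSapphire, under the GPD promoter, the markers were swapped between the strains in part of the fermentations, and the labels do not say which library carried which marker. Cells of each strain were sorted by flow cytometry and their RNA was amplified and sequenced as SOLiD reads of 75 bases. The 12 groups (2 strains, 2 cultures and samples at 12, 20 and 30 h) hold 3 libraries each, 36 in all. The study's methods describe its successive samples as the start and middle of exponential growth and the start of stationary phase.

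Thiamine diphosphate is the cofactor of pyruvate decarboxylase, transketolase and other enzymes that act on the bond beside a carbonyl group. Yeast builds thiamine from a thiazole and a pyrimidine that are made separately, then joined and phosphorylated, and it also takes thiamine up from the medium. The genes of this pathway are known to be transcribed when thiamine is scarce and repressed when it is plentiful, and wine yeasts are known to remove thiamine from must early in fermentation.

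THI5, THI11, THI12 and THI13 encode near-identical enzymes of pyrimidine synthesis, so reads can be assigned to 1 copy only where the copies differ. A stretch of 90 coding bases is shown from the R64 reference, because it holds 9 of the 27 positions at which the 4 copies of 1023 bases vary. Capitals mark the positions that vary among the copies. The stretch lies at chrVI:13369-13458 on the plus strand (THI5), chrX:729067-729156 on the minus strand (THI11), chrXIV:15272-15361 on the plus strand (THI12) and chrIV:16644-16733 on the plus strand (THI13).
THI5: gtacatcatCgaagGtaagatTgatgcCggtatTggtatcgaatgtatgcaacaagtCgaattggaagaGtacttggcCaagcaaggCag
THI11: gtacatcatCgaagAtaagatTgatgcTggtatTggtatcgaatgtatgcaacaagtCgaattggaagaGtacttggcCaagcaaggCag
THI12: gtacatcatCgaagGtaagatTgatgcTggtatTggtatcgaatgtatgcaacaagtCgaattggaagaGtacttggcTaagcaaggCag
THI13: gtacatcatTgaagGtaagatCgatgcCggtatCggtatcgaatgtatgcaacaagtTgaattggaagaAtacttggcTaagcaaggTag

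Of the 9 capitals, 6 are private to THI13 and 1 to THI11, whereas THI5 and THI12 have none of their own there. Over the whole coding sequence THI13 holds 11 private bases, THI12 5, THI11 4 and THI5 1. Pairs of copies differ at 7 (THI5 and THI12) to 23 (THI12 and THI13) of the 1023 bases. The share of 75-base windows that occur once in the R64 genome was 26.2% for THI5, 36.4% for THI11, 39.9% for THI12 and 53% for THI13. It was 96.8% for PHO3 and 100% for each of the other 5 genes. Over the 36 libraries THI13 was given 292 reads, THI11 83, THI12 1 and THI5 0. Counting error alone allows up to 3 reads for a count of 0. The order of the reads follows the unique share for THI13 and THI5 but not for THI12, which has more unique windows than THI11 and a single read, in replicate 3 of strain 12 in mixed culture at 12 h. The sources used here do not say how reads matching several places were counted or which bases the wine strains carry at these positions. The 4 copies are therefore also described by their sum, called the THI5 family (376 reads). The sum does not depend on how reads were divided among the copies, as long as each read was counted once.

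**Figure D1:**
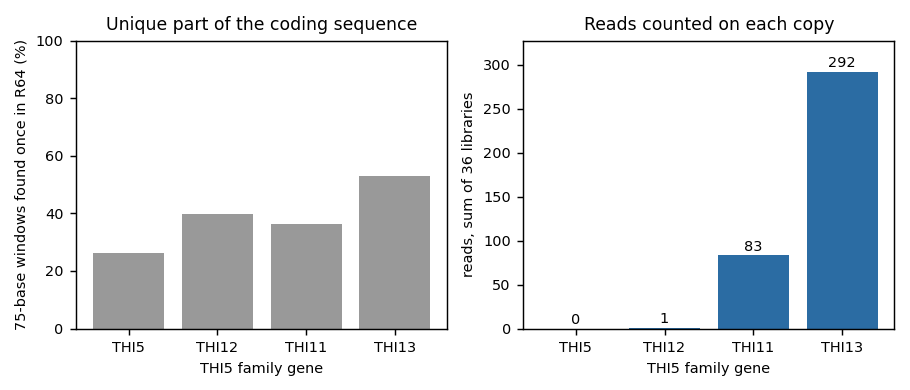
Left, the share of 75-base windows of each THI5 family coding sequence that occur once in the R64 genome (%). Right, the reads counted on each copy, summed over 36 libraries: THI13 took 292, THI11 83, THI12 1 and THI5 0, although the unique share of THI12 (39.9%) lies above that of THI11 (36.4%).

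The libraries held 35400 to 530376 reads on genes, with a median of 230090 at 12 h, 88929 at 20 h and 91418.5 at 30 h, so values at 20 and 30 h rest on fewer reads. Genes that separate the strains were read in the mixed cultures as well. SSU1, a sulphite pump, had mean values of 8.61 to 14.7 counts per M (CPM) in strain 11 single cultures and 79.2 to 174 in strain 11 mixed cultures, against 972 to 1077 and 561 to 1208 in strain 12. A second gene high in strain 12, YHB1, had 8.35 to 55.4 CPM in strain 11 single cultures and 79.4 to 130 in strain 11 mixed cultures, against 608 to 1107 and 543 to 999 in strain 12. The 3 retrotransposon genes used as marks of strain 11 (YLR227W-B, YNL284C-A and YNL284C-B) had no read in strain 12 single cultures and group means of up to 8.85 CPM in strain 12 mixed cultures. In strain 11 their group means were lower in mixed culture at each time, for YNL284C-B 103, 95.6 and 118 CPM in single culture at 12, 20 and 30 h against 36.4, 40.1 and 36.8 CPM in mixed culture. Those of YNL284C-A were 71.7, 95.6 and 102 CPM against 23.8, 40.1 and 31.7 CPM, and those of YLR227W-B 24.6, 49.5 and 18.8 CPM against 6.55, 12.7 and 11.0 CPM. The part of RNA from the other strain in the mixed-culture results below was not tested.

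Per unit of length, THI4 was the most abundant of the 10 genes. Its median over the 36 libraries was 1826 RPKM, the reads divided by gene length in kilobases and by M reads on exons. THI7 followed with a median of 536 RPKM and THI20 with 494. PHO3 had a median of 160 RPKM and THI22 52.0. THI13 (31.6), THI21 (30.1) and THI11 (10.7) had the lowest medians in RPKM of the genes with reads in most libraries. RPKM divides by the whole length, whereas 53% of the windows of THI13 and 36.4% of those of THI11 were unique. How reads matching several places were counted is not known, so the rank of these copies is uncertain. Reads were found in all 36 libraries for THI4, THI20, THI22, THI7 and PHO3, in 35 for THI21, in 34 for THI13 and in 27 for THI11.

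**Figure D2:**
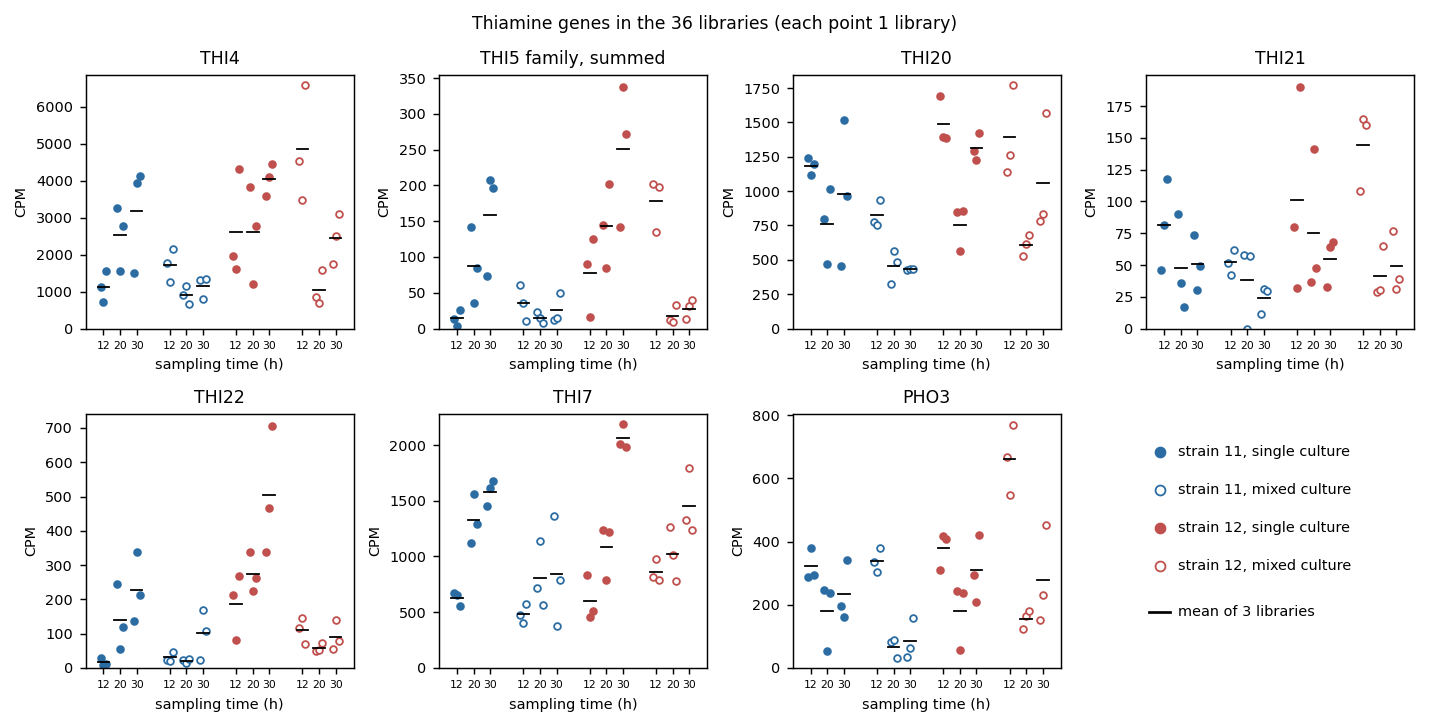
CPM (counts per M, scaled by TMM) of 6 genes and of the summed THI5 family in each of 36 libraries, by sampling time (h), strain (blue 11, red 12) and culture (filled single, open mixed). Bars mark means of 3 libraries. The open points at 20 and 30 h lie below most filled points of the same strain and time for THI4, the THI5 family and THI22.

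Across the 12 groups, the mean level of THI22 varied by 30.5-fold, from 16.5 ± 11.9 CPM (SD, n = 3) in strain 11 single culture at 12 h to strain 12 single culture at 30 h, whose libraries had 339, 467 and 706 CPM. The THI5 family mean varied by 17.6-fold, PHO3 by 9.78-fold, THI21 by 6.03-fold, THI4 by 5.36-fold, THI7 by 4.28-fold and THI20 by 3.46-fold. THI11 ranged more widely in its means, from 82.8 CPM in strain 12 single culture at 30 h to 2.57 CPM in strain 12 mixed culture at 30 h, but from 17 reads and 1 read, and its groups were not put in order. When the 12 groups were put in order of their mean, the libraries of neighbouring groups overlapped in 10 or 11 of 11 neighbouring pairs for each of THI4, the THI5 family, THI20, THI21, THI22, THI7 and PHO3, so the order is not resolved step by step. The exceptions were the highest group of THI7 (strain 12 single culture, 30 h), the highest group of PHO3 (strain 12 mixed culture, 12 h) and, for THI22, the step from strain 12 mixed culture at 20 h to strain 11 mixed culture at 12 h.

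The first comparison asked how each strain's expression differed between mixed and single culture. At 12 h none of the 8 tested genes was called in either strain, while at 20 and 30 h THI4, THI13, THI20 and THI22 were each called lower in mixed culture in at least 1 strain. All 32 log2 fold changes at those later times (8 genes, 2 strains, 2 times) were below 0, with a median of -1.27 and a range from -4.37 to -0.06, and 8 of the 32 passed an adjusted p of 0.05. They are not 32 separate observations, since THI11 and THI13 are near-identical copies and the 8 genes were read in the same libraries. THI7, PHO3, THI21 and THI11 were not called between cultures. In libraries of sorted cells, fewer cells that express a gene and less of its RNA per cell cannot be told apart.

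In strain 11, 0 of 8 genes were called at 12 h, where 8.61% of the 3670 tested genes were called. At 20 h 2 of 8 were called, all lower, against 4.99% of all genes, and at 30 h 3 of 8, all lower, against 3.81%. The median log2 fold change of the 8 genes in strain 11 was -0.14, -1.51 and -1.29 at the successive times, and that of all tested genes was -0.05, -0.02 and -0.02. In strain 12, 0 of 8 were called at 12 h (2.59% of all genes), 2 of 8 at 20 h (1.28%) and 1 of 8 at 30 h (0.218%), all lower. The medians of the 8 genes in strain 12 were 0.60, -1.03 and -0.61, against -0.02, 0.01 and -0.02 for all genes. At 12 h the count at an unadjusted p under 0.05 was 0 of 8 in strain 11, against 782 of all 3670 genes. In strain 12 it was 3 of 8, against 564 of all 3670. DESeq2 and limma called 0 of the 8 at 12 h in each strain. With limma on log2(RPKM + 1) the calls over the 3 times numbered 2 in strain 11, against 5 in the count test, and 0 in strain 12, against 3. Of all 3670 genes limma called 122 higher and 18 lower at 12 h in strain 11. It called 187 and 48 at 20 h and 77 and 17 at 30 h. For strain 12 these were 17 and 16, 60 and 5, and 1 and 0.

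**Figure D3:**
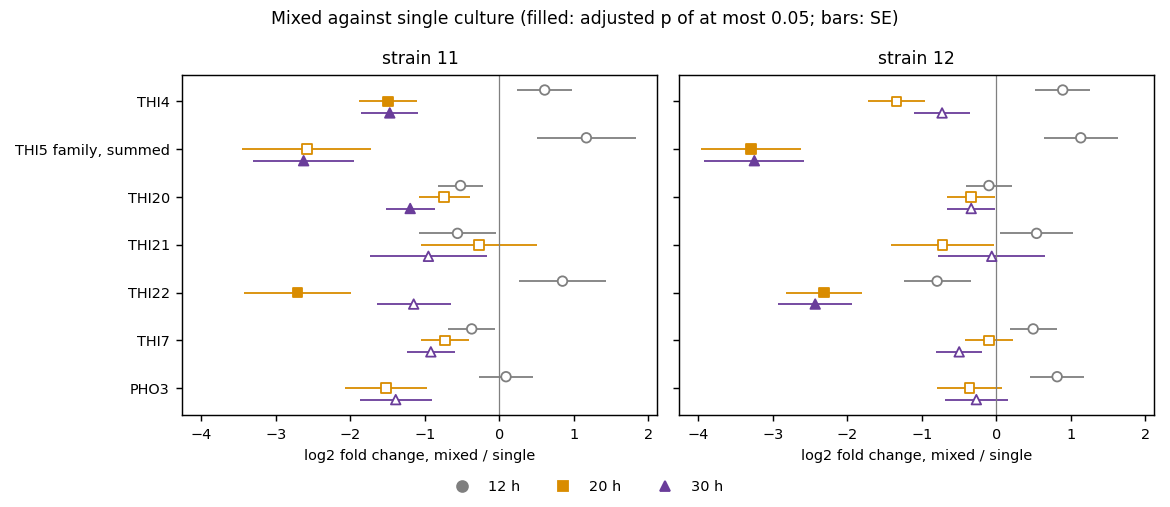
Log2 fold change of mixed against single culture, with its SE, at 12, 20 and 30 h in strain 11 (left) and strain 12 (right), from 3 libraries per group. Filled marks have an adjusted p of at most 0.05. All marks at 20 and 30 h lie left of 0, and 5 of the 7 rows in strain 12 lie right of it at 12 h.

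THI4 (chromosome VII, 780404 to 781384 in the coordinates of the deposited tables, plus strand) encodes the thiazole synthase, which gives up the sulphur of its own cysteine in the reaction. In strain 11 at 20 h the single cultures had 3254, 1561 and 2781 CPM and the mixed cultures 903, 1157 and 658 CPM. At 30 h the single cultures of strain 11 had 1513, 3922 and 4112 CPM and the mixed cultures 1318, 800.2 and 1334 CPM. The groups did not overlap at either time, although replicate 1 of the single culture at 30 h came close to the mixed ones. Of all tested genes in strain 11, 22.3% had groups that did not overlap at 20 h and 18.8% at 30 h. THI4 was 2.82-fold lower in mixed culture at 20 h (log2 fold change -1.497 ± 0.39 (SE, n = 3), adjusted p = 0.0142). At 30 h it was 2.77-fold lower (-1.47 ± 0.38, adjusted p = 0.0148). The call at 20 h was lost without replicate 1 or 3 of either culture (-1.28 to -1.5, adjusted p = 0.0532 to 0.112). The call at 30 h was lost without replicate 2 or 3 of the single culture or replicate 2 of the mixed culture (-1.24 to -1.28, adjusted p = 0.0983 to 0.193).

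In strain 12 THI4 showed values of 3816, 1212 and 2762 CPM in single culture and 855, 689.8 and 1596 CPM in mixed culture at 20 h, with replicate 2 of the single culture inside the mixed range. The log2 fold change was -1.34 at 20 h (adjusted p = 0.059) and -0.73 at 30 h (adjusted p = 0.66), and neither passed the test. At 12 h the 3 mixed cultures of strain 12 had 4537, 3466 and 6570 CPM, the highest group mean of THI4 (4858 ± 1577, SD, n = 3), and overlapped the single cultures (1959, 1604 and 4300.2 CPM).

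The THI5 family makes the pyrimidine from histidine and vitamin B6. At 20 h in strain 12 the sum of the 4 copies was 145, 84.6 and 202 CPM in single culture and 11.5, 8.62 and 32.6 CPM in mixed culture. At 30 h it was 142, 338 and 272 CPM against 13.9, 30.9 and 39.2 CPM. Each single culture of strain 12 lay above each mixed culture at both times. Of all tested genes in strain 12, 22.6% had groups that did not overlap at 20 h and 11.4% at 30 h. The family sum was 9.78-fold lower in mixed culture at 20 h (-3.29 ± 0.67, adjusted p = 0.00427) and 9.50-fold lower at 30 h (-3.25 ± 0.67, adjusted p = 0.00987). These rest on 32 reads against 10 at 20 h and 54 against 8 at 30 h, ratios per M of 11.1 and 9.63 with exact 95% counting intervals of 5.33 to 25.4 and 4.56 to 23.5. The call at 20 h was lost without replicate 3 of the single or replicate 1 or 2 of the mixed culture (-2.96 to -3.04, adjusted p = 0.054 to 0.0634), and that at 30 h without replicate 2 of the single (-2.98, adjusted p = 0.119) or replicate 1 of the mixed culture (-2.84, adjusted p = 0.491).

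In strain 11 the family sum at 30 h was 73.8, 207 and 196 CPM in single culture and 11.6, 15.4 and 49.4 CPM in mixed culture, 6.18-fold lower (-2.63 ± 0.68, adjusted p = 0.0141), from 45 reads against 8. This call was lost without replicate 2 of the single or replicate 1 or 2 of the mixed culture (-2.32 to -2.35, adjusted p = 0.0521 to 0.173). At 20 h the groups did not overlap (142, 35.9 and 84.8 against 23.1, 14.8 and 8.12 CPM), as for 22.3% of all tested genes. With 18 reads against 4 the difference did not pass the test (-2.58, adjusted p = 0.0653). At 12 h the family sum was not called in either strain, with a log2 fold change of 1.17 in strain 11 (adjusted p = 0.322) and of 1.13 in strain 12 (adjusted p = 0.242). The share of genes called in the fit with the summed families differed from that in the fit of single genes by at most 0.089 percentage points in any comparison.

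Of the single copies, THI13 (chromosome IV, 16204 to 17226, plus strand) was called lower in mixed culture in strain 11 at 30 h (49.2, 115 and 179.5 against 11.6, 0 and 19.8 CPM) and in strain 12 at 20 h (121, 28.2 and 166 against 11.5, 4.31 and 24.4 CPM). In strain 11 this was 30 reads against 3, a ratio per M of 11.6 with a 95% counting interval of 3.62 to 59.6 (log2 fold change -3.44, adjusted p = 0.015). In strain 12 it was 25 reads against 8, a ratio of 10.9 with an interval of 4.75 to 27.9 (-3.23, adjusted p = 0.0173). The first call was lost without replicate 2 or 3 of the single or replicate 2 of the mixed culture (-2.75 to -3.40, adjusted p = 0.0576 to 0.203). The second was lost without replicate 1 or 3 of the single or replicate 1 or 2 of the mixed culture (-2.80 to -3.21, adjusted p = 0.0778 to 0.2). THI11 (chromosome X, 728565 to 729587, minus strand) had its widest gap in strain 12 at 30 h, with 17 reads in single and 1 in mixed culture, a ratio per M of 24.3 with an interval of 3.80 to 1014, and it was not called (adjusted p = 0.16).

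THI20, THI21 and THI22 are relatives of which Thi20 and Thi21 phosphorylate the pyrimidine, whereas THI22 is not required for thiamine synthesis. In these libraries THI20 (chromosome XV, 224419 to 226074, minus strand) was read most of the 3, with 5799 reads against 640 for THI22 and 382 for THI21. THI20 at 30 h in strain 11 had 455, 1519 and 963 CPM in single culture and 428, 431 and 435 CPM in mixed culture. It was 2.29-fold lower (-1.20 ± 0.33, adjusted p = 0.0244), but replicate 1 of the single culture (455 CPM) lay close to the highest mixed culture (435 CPM). Without replicate 2 of the single culture the difference was -0.69 (adjusted p = 0.326), and without replicate 3 of the single or any of the mixed cultures it was -1.19 to -1.20 (adjusted p = 0.0506 to 0.138). The sum of the 3 relatives gave -1.18 (adjusted p = 0.017), lost without replicate 2 of the single culture (-0.74, adjusted p = 0.256) or any of the mixed ones (-1.07 to -1.29, adjusted p = 0.0571 to 0.0664). In strain 12 THI20 differed by -0.34 at both later times and was not called.

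THI22 (chromosome XVI, 778579 to 780297, plus strand) was lower in mixed culture in both strains. In strain 11 at 20 h it had 245, 53.8 and 119 CPM in single culture and 23.1, 14.8 and 24.4 CPM in mixed culture, from 29 reads against 6. The groups stood apart, as for 22.3% of all tested genes, with a 6.55-fold difference (-2.71 ± 0.72, adjusted p = 0.0154). In strain 12 at 20 h it had 339, 226 and 261 CPM against 48.8, 51.7 and 73.3 CPM, 4.98-fold lower (-2.32 ± 0.51, adjusted p = 0.00862). At 30 h strain 12 had 339, 467 and 706 CPM against 55.6, 139 and 78.4 CPM, 5.40-fold lower (-2.43 ± 0.50, adjusted p = 0.00795). The call in strain 11 was lost without replicate 1 of the single or replicate 1 or 3 of the mixed culture (-1.98 to -2.85, adjusted p = 0.0534 to 0.205). In strain 12 the call at 20 h was lost without replicate 1 of the single or replicate 1 or 2 of the mixed culture (-2.12 to -2.26, adjusted p = 0.0773 to 0.0831), and that at 30 h without replicate 3 of the single (-2.11, adjusted p = 0.0891) or replicate 1 of the mixed culture (-2.10, adjusted p = 0.491). At 30 h in strain 11 THI22 gave -1.15 (adjusted p = 0.199), with replicate 2 of the mixed culture (169 CPM) above replicate 1 of the single culture (135 CPM).

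THI21 (chromosome XVI, 53498 to 55153, minus strand) was not called between cultures. Its log2 fold changes lay between -0.95 and 0.54, from 8 to 81 reads per group.

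THI7 (chromosome XII, 612369 to 614165, plus strand), the thiamine transporter of the plasma membrane, and PHO3 (chromosome II, 427692 to 429095, minus strand), an acid phosphatase of the periplasm that releases thiamine from its phosphates, were not called between cultures either. THI7 gave -0.73 at 20 h (adjusted p = 0.212) and -0.92 at 30 h (adjusted p = 0.0976) in strain 11, and -0.10 and -0.50 in strain 12. At 30 h in strain 12 the THI7 values were 2010.0, 2190.0 and 1983 CPM in single and 1328, 1791 and 1235 CPM in mixed culture. The groups did not overlap, as for 11.4% of all tested genes. PHO3 gave -1.52 at 20 h (adjusted p = 0.0898) and -1.39 at 30 h (adjusted p = 0.095) in strain 11, from 36 reads against 17 and 58 against 27, and -0.36 and -0.27 in strain 12.

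Whether the response to mixed culture differed between the strains was tested as an interaction. None of the 8 genes passed at 12 h (1.17% of all genes passed), at 20 h (0.0817%) or at 30 h (0.0272%). The counts at an unadjusted p under 0.05 were 1, 0 and 0 of 8, against 370, 273 and 309 of all 3670 genes. DESeq2 and limma called 0 of the 8 at each time. A gene called in 1 strain only, such as THI4 in strain 11, was thus not shown to respond differently in the other.

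A further contrast, chosen after the values at each time had been seen, compared the response to mixed culture at 20 or 30 h with that at 12 h within a strain. In strain 11, 2 of 8 genes passed for 20 h (2.64% of all genes) and 2 of 8 for 30 h (2.45%). In strain 12, 2 of 8 passed for 20 h (2.45%) and 1 of 8 for 30 h (0.899%). All of them, THI4, THI13 and THI22, moved towards lower values in mixed culture. The 12 h libraries are shared by the contrasts for 20 and 30 h.

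The second comparison set strain 12 against strain 11 in the same culture and at the same time. At 12 h THI13 and THI22 were called higher in strain 12 in both cultures, and THI4 in mixed culture. At 20 and 30 h the single call was that of THI20 in mixed culture at 30 h, which was lost without any of 5 libraries. In single culture at 12 h 2 of 8 genes were called, both higher in strain 12, where 1.04% of all genes were called. In single culture at 20 h 0 of 8 were called (0.572% of all genes) and at 30 h 0 of 8 (0.518%). In mixed culture 3 of 8 were called at 12 h, all higher in strain 12 (5.04% of all genes), 0 of 8 at 20 h (0.191%) and 1 of 8 at 30 h, higher (0.899%). In mixed culture at 12 h all 8 genes had a log2 fold change above 0, with a median of 1.46, against 0.04 for all tested genes. For the 3 counts of 0, the numbers at an unadjusted p under 0.05 were 0, 1 and 1 of 8. Of all 3670 genes they were 286, 333 and 382. DESeq2 and limma called 0 of the 8 there. With limma on log2(RPKM + 1) the calls over the 3 times numbered 1 in single culture, against 2 in the count test, and 0 in mixed culture, against 4. Of all 3670 genes limma called 12 higher and 9 lower at 12 h in single culture. It called 30 and 26 at 20 h and 4 and 8 at 30 h. For mixed culture these were 5 and 97, 0 and 0, and 3 and 2.

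**Figure D4:**
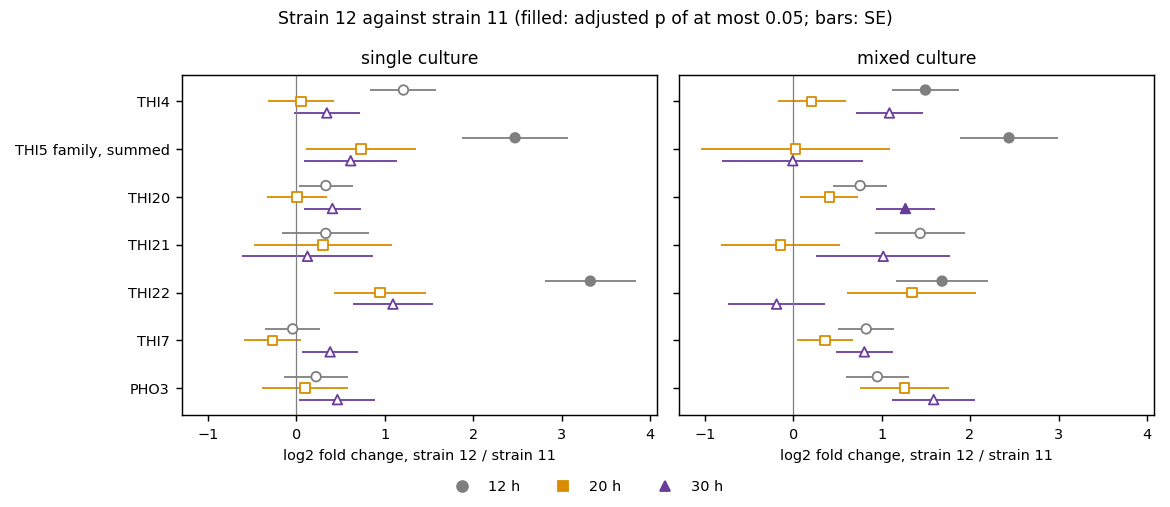
Log2 fold change of strain 12 against strain 11, with its SE, in single (left) and mixed culture (right) at 12, 20 and 30 h, from 3 libraries per group. Filled marks have an adjusted p of at most 0.05. The filled marks at 12 h are THI22 and the THI5 family in both panels and THI4 in mixed culture.

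The gene with the widest gap between the strains was THI22. In single culture at 12 h it had 29.9, 7.10 and 12.6 CPM in strain 11 and 213, 80.6 and 269 CPM in strain 12, from 20 reads against 155. The strains did not overlap, as for 9.95% of all tested genes, with a 10.0-fold difference (3.33 ± 0.51, adjusted p = 1.11e-05) that was kept without each of the 6 libraries. In mixed culture at 12 h THI22 had 23.6, 21.1 and 46.9 CPM in strain 11 and 116, 145 and 70.6 CPM in strain 12, a 3.21-fold difference (1.68 ± 0.52, adjusted p = 0.0414). That call was lost without replicate 1 or 2 of either strain (1.39 to 1.62, adjusted p = 0.104 to 0.209). The difference did not pass at 20 h or 30 h, where it was 0.94 and 1.09 in single culture and 1.34 and -0.19 in mixed culture.

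The THI5 family sum was 13.96, 3.55 and 25.2 CPM in strain 11 and 90.2, 16.1 and 125 CPM in strain 12 in single culture at 12 h, with replicate 2 of strain 12 inside the range of strain 11. The sum was 5.56-fold higher in strain 12 (2.47 ± 0.60, adjusted p = 0.0167). This call was lost without replicate 1 or 2 of strain 11 or replicate 1 or 3 of strain 12 (2.10 to 2.48, adjusted p = 0.0896 to 0.154). In mixed culture at 12 h the sum was 61.2, 35.2 and 10.7 CPM against 202, 135 and 198 CPM and the strains did not overlap, as for 28.3% of all tested genes. It was 5.43-fold higher in strain 12 (2.44 ± 0.55, adjusted p = 0.00266), lost without replicate 3 of strain 11 (1.82, adjusted p = 0.0706). THI13 alone gave 2.55 in single culture (adjusted p = 0.0448), lost without replicate 1 or 2 of strain 11 or replicate 1 or 3 of strain 12 (2.06 to 2.36, adjusted p = 0.171 to 0.409). In mixed culture it gave 2.32 (adjusted p = 0.012), lost without replicate 3 of strain 11 (1.73, adjusted p = 0.144) or replicate 3 of strain 12 (2.18, adjusted p = 0.0667). At 20 and 30 h the family sum did not pass in either culture.

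THI4 in mixed culture at 12 h had 1771, 1246 and 2138 CPM in strain 11 and 4537, 3466 and 6570 CPM in strain 12. The strains did not overlap, as for 28.3% of all tested genes, and THI4 was 2.82-fold higher in strain 12 (1.49 ± 0.37, adjusted p = 0.00806). The call was lost without replicate 2 of strain 11 (1.31, adjusted p = 0.105) or replicate 3 of strain 12 (1.19, adjusted p = 0.103). In single culture at 12 h THI4 gave 1.21 (adjusted p = 0.156). THI20 in mixed culture at 30 h had 428, 431 and 435 CPM in strain 11 and 786, 834 and 1568 CPM in strain 12, 2.41-fold higher (1.27 ± 0.33, adjusted p = 0.041). This was lost without any 1 library of strain 11 or replicate 2 or 3 of strain 12 (0.90 to 1.42, adjusted p = 0.0774 to 0.284). It was also lost in fits on the libraries compared, without the block (adjusted p = 0.0569) and with it (adjusted p = 0.145), and with limma (adjusted p = 0.117 and 0.126).

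At 12 h same-numbered libraries of the strains deviated together in both cultures, so the strain comparison was also fitted with the replicate number as a block. With the block in the model of all 36 libraries the same genes were called as without it. With the block in a fit on the 6 libraries compared, THI4 was called in single culture (1.14 ± 0.21, adjusted p = 0.00702) and THI13 was not (2.60, adjusted p = 0.0738). In mixed culture all 8 genes were then called higher in strain 12 (0.71 to 3.19, adjusted p from 3.55e-09 to 0.0378), where 16.8% of all genes were called. The fit on those 6 libraries without the block called 5 of the 8 and 9.62% of all genes. In single culture the fit on 6 libraries without the block kept THI22 (3.36, adjusted p = 0.00491) and lost THI13 (2.57, adjusted p = 0.47) and the THI5 family sum (2.49, adjusted p = 0.235). This pairing is read from the data, since no source used here says what a replicate number shares.

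The third comparison followed each culture in time. From 12 to 20 h THI4, THI13, THI22 and THI7 rose in strain 11 single culture, whereas in strain 12 mixed culture THI4, THI13, THI20, THI21 and PHO3 fell. From 12 to 20 h 4 of 8 genes were called in strain 11 single culture (28.8% of all genes), 1 of 8 in strain 11 mixed culture (5.78%), 2 of 8 in strain 12 single culture (25.7%) and 5 of 8 in strain 12 mixed culture (23.8%). The 8 genes were thus called no more often than all genes in strain 12 single culture. From 20 to 30 h none of the 8 was called, in strain 11 single (0.708% of all genes) and mixed culture (0.0%) or in strain 12 single (0.627%) and mixed culture (0.0272%). The counts at an unadjusted p under 0.05 were then 0, 1, 2 and 2 of 8, against 463, 231, 321 and 202 of all 3670 genes. DESeq2 and limma called 0 of the 8. The fit with the replicate block on the libraries compared called 1 of the 8 in strain 12 mixed culture. Of all 3670 genes it called 2 higher and 5 lower there. For THI4, THI22, THI7, PHO3 and the THI5 family sum the mean at 30 h was above that at 20 h in each of the 4 cultures. For THI11, THI13, THI20 and THI21 this did not hold in every culture.

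**Figure D5:**
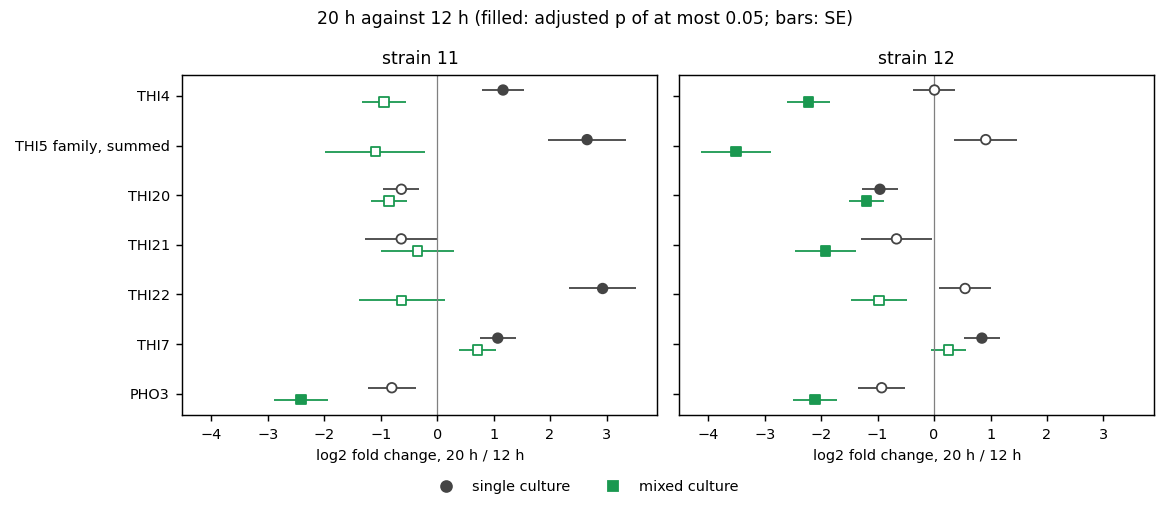
Log2 fold change of 20 h against 12 h, with its SE, in single (circles) and mixed culture (squares) of strain 11 (left) and strain 12 (right), from 3 libraries per group. Filled marks have an adjusted p of at most 0.05. The filled circles of strain 11 lie right of 0 and the filled squares of both strains lie left of it.

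In strain 11 single culture THI22 rose 7.62-fold from 29.9, 7.10 and 12.6 CPM at 12 h to 245, 53.8 and 119 CPM at 20 h (2.93 ± 0.59, adjusted p = 0.000103). THI7 rose 2.10-fold, from 668, 653 and 559.7 CPM to 1123, 1561 and 1289 CPM (1.07 ± 0.32, adjusted p = 0.00793). Both calls were kept without each library. THI4 rose 2.25-fold (1.17 ± 0.38, adjusted p = 0.0151), lost without replicate 2 at 12 h (0.90, adjusted p = 0.109) or replicate 1 at 20 h (0.97, adjusted p = 0.091). The THI5 family sum rose 6.30-fold, from 13.96, 3.55 and 25.2 CPM to 142, 35.9 and 84.8 CPM (2.66 ± 0.70, adjusted p = 0.00269), lost without replicate 1 at 20 h (2.10, adjusted p = 0.0863). THI13 rose by 2.70 on the log2 scale (adjusted p = 0.00818), lost without the same library (1.73, adjusted p = 0.278).

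In strain 12 mixed culture THI4 fell 4.68-fold, from 4537, 3466 and 6570 CPM at 12 h to 855, 689.8 and 1596 CPM at 20 h (-2.23 ± 0.39, adjusted p = 1e-05). The THI5 family sum fell 11.4-fold, from 202, 135 and 198 CPM to 11.5, 8.62 and 32.6 CPM (-3.51 ± 0.62, adjusted p = 1.33e-05), from 95 reads against 10. THI13 followed with -3.58 (adjusted p = 6.28e-05). PHO3 fell 4.31-fold, from 667, 546 and 768 CPM to 123, 164 and 179 CPM (-2.11 ± 0.38, adjusted p = 2.36e-05). THI20 fell 2.30-fold (-1.20 ± 0.31, adjusted p = 0.00274). These calls were kept without each library, and that of THI21 (109, 165 and 160.1 CPM at 12 h, 28.7, 30.2 and 65.1 CPM at 20 h, -1.93, adjusted p = 0.00582) was lost without replicate 1 at 20 h (-1.69, adjusted p = 0.0565). None of the 12 h and 20 h groups of these genes overlapped, which was also the case for 42.3% of all tested genes.

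PHO3 was the gene called in strain 11 mixed culture, where it fell 5.33-fold from 334, 303 and 379.8 CPM at 12 h to 81.0, 89.0 and 32.5 CPM at 20 h (-2.42 ± 0.48, adjusted p = 0.000613), kept without each library. In the single cultures PHO3 gave -0.80 in strain 11 and -0.93 in strain 12 and was not called. In strain 12 single culture THI20 fell 1.95-fold, from 1695, 1394 and 1385 CPM to 848, 564 and 853 CPM (-0.96 ± 0.32, adjusted p = 0.0206), lost without replicate 1 at 12 h (-0.85, adjusted p = 0.0773) or replicate 2 at 20 h (-0.82, adjusted p = 0.0914). THI7 rose 1.80-fold there (0.85 ± 0.32, adjusted p = 0.0439), lost without replicate 2 or 3 at 12 h or replicate 1 or 3 at 20 h (0.69 to 0.74, adjusted p = 0.126 to 0.159). THI4 gave 0.01 and the THI5 family sum 0.91 in that culture, and neither was called.

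The other 26 genes around thiamine (vitamin B6 synthesis, joining and phosphorylation, regulators, membrane relatives and enzymes that use thiamine diphosphate) were described from a list, and 20 of them were tested. Between cultures in strain 11, 4 of 20 were called at 12 h (8.61% of all genes), 3 of 20 at 20 h (4.99%) and 3 of 20 at 30 h (3.81%), in both directions. In strain 12, 3 of 20 were called at 12 h (2.59% of all genes), 0 at 20 h (1.28%) and 0 at 30 h (0.218%). At an unadjusted p under 0.05 the last 2 counts were 8 and 5, and over the 3 times in strain 12 DESeq2 made 5 calls of the list and limma 2. The 3 genes that join the precursors and make and carry the diphosphate (2 tested) and the 3 regulators (3 tested) gave no call between cultures or strains. SNZ1, an enzyme of vitamin B6 synthesis known from stationary phase, was higher in strain 11 mixed culture at 12 h (324 ± 99.0 against 28.4 ± 7.43 CPM, SD, n = 3, log2 fold change 3.40, adjusted p = 4.37e-07), and also higher at 20 and 30 h. ARO10, a phenylpyruvate decarboxylase of amino acid breakdown, was lower in mixed culture at 12 h in strain 12 (49.97 ± 24.1 against 1748 ± 1032 CPM, -5.05, adjusted p = 1.06e-10) and in strain 11 (251 ± 102 against 1482 ± 371 CPM, -2.60, adjusted p = 8.7e-06), and higher at 30 h in strain 11. PDC6, a minor pyruvate decarboxylase, was higher in strain 11 mixed culture at 12 h (2.34, adjusted p = 9.79e-05) and lower at 30 h. TKL2, the minor transketolase, was higher at 12 h in both strains and lower at 20 h in strain 11. Of the membrane relatives, THI73 was lower in strain 11 at 20 h and NRT1, a nicotinamide riboside transporter, higher in strain 12 at 12 h.

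Between the strains, 2 of the 20 were called in single culture (1.04% of all genes) and 2 of the 20 in mixed culture (5.04%), all at 12 h. In single culture PDC6 (2.81, adjusted p = 7.97e-06) and PDC5 (1.998, adjusted p = 0.00331), pyruvate decarboxylase genes of which PDC5 is known to rise when thiamine is scarce, were higher in strain 12. PDC5 had 401 ± 168 CPM in strain 11 and 1599 ± 676 CPM in strain 12 (SD, n = 3). In mixed culture SNZ1 (-2.93, adjusted p = 4.9e-05) and ARO10 (-2.20, adjusted p = 0.00352) were lower in strain 12.

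The genes whose 12 group means of log2 CPM were most like those of THI4, among 3662 other tested genes, were EXG1 (Pearson r = 0.88), FBA1 (0.86), OYE2 (0.86), YDR541C (0.84) and YCF1 (0.82). For the THI5 family sum they were YDR541C (0.89), EXG1 (0.83), VNX1 (0.82), HMS2 (0.82) and FBA1 (0.82). For THI7 they were OPT1 (0.95), THI73 (0.95), SCW4 (0.94), YPF1 (0.93) and RDS1 (0.93). Among the thiamine genes themselves, THI4 was most like THI13 (0.93), and PHO3 was most like THI20 (0.92) and THI21 (0.89), whereas THI7 had r = 0.10 with THI20 and -0.06 with PHO3. These correlations are descriptions over 12 group means that share libraries and depth.

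The letters TATAAA, on either strand within 250 bases before the coding start in R64, were found for THI4, THI21 and the 4 THI5 family copies, 6 of the 10 genes, and for 43.6% of 6020 R64 genes. The 4 near-identical copies hold them at the same distance of 40 bases. They are therefore not separate observations, and the 6 of 10 cannot be read as an excess over that share.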

How the data were processed

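Sorted cells of both strains gave 36 libraries in 12 groups of 3, taken from the labels, which do not give the marker of a library or say what a replicate number shares. The authors deposited the count of reads per gene and per exon and the RPKM of each gene, which was recomputed from the count for 100% of genes. Alignment was to sacCer2, and the submitters' processing notes name Cuffdiff and Cufflinks 1.3.0. The exon table names LifeScope. No source used here gives the strand setting or the treatment of reads matching several places. Amplified reads without molecular identifiers are not independent molecules, so counting intervals cover counting error only.

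The deposited counts were tested with edgeR 4.0.16 (limma 3.58.1, R 4.3.3), two-sided: filterByExpr (3670 genes), TMM factors (0.888 to 1.08), 1 coefficient per group, quasi-likelihood test, Benjamini-Hochberg adjustment over all tested genes. Genes with an adjusted p of at most 0.05 were called. An SE is the log2 fold change divided by the square root of F. A second fit (3667 genes) replaced the THI5 and THI20 families by their sums. Groups of 3 hold too few arrangements for an exact permutation test of single genes (smallest p = 0.1), so none was used. Where libraries of a group do not come from separate fermentations, p-values measure only the spread between libraries. The step was tested on simulated counts.

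The members and lists were chosen with earlier results of these data known. The 10 genes are named by rule, and library values are given for those called in at least 1 comparison. Genes of the list are named where called between cultures or strains, with values for the lowest adjusted p. The 5 genes most like THI4, the THI5 family and THI7 are named. THI11 is given by counts.

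Same-numbered libraries deviated together (each of 3 correlations over 0.1) only between the strains at 12 h, in single culture (0.453, 0.288 and 0.380) and in mixed culture (0.196, 0.104 and 0.173). Alternatives were DESeq2 1.42.0, RLE factors, fits restricted to the libraries compared, no filter (genes with 1 count or more), the replicate block, limma on log2(RPKM + 1) or log2(RPKM + 0.1), exon counts, a minimum absolute log2 fold change of 1, and each library left out. R64 sequences were read by gene identifier with R64's own annotation and are not the build of the counts.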

Additional observations from a re-analysis of the deposited data

Results flagged for a closer look

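The response of some genes to mixed culture differed between times within a strain. This contrast was chosen after the values had been seen, and the same 12 h libraries enter the values for 20 and 30 h. In strain 11 THI4 moved by -2.11 on the log2 scale from 12 to 20 h (adjusted p = 0.0173) and by -2.08 from 12 to 30 h (adjusted p = 0.0185). THI22 moved by -3.56 from 12 to 20 h (adjusted p = 0.0221) and THI13 by -4.90 from 12 to 30 h (adjusted p = 0.0112). The THI5 family sum moved by -3.75 (adjusted p = 0.0483) and -3.80 (adjusted p = 0.0175). Each of these 6 calls in strain 11 was lost without at least 1 library, THI4 without any of 4 libraries for 20 h (adjusted p = 0.0604 to 0.0811) and any of 5 for 30 h (0.0564 to 0.0911), and THI13 without mixed-culture replicate 1 at 12 h (-4.27, adjusted p = 0.0751) or mixed-culture replicate 2 at 30 h (-4.21, adjusted p = 0.0739). THI22 was lost without any of 5 libraries (adjusted p = 0.0575 to 0.178), and the family sum without any of 9 for 20 h (0.0584 to 0.265) and any of 4 for 30 h (0.0561 to 0.175).

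In strain 12 the move from 12 to 20 h was -2.23 for THI4 (adjusted p = 0.0107), -4.46 for THI13 (adjusted p = 0.00445) and -4.42 for the THI5 family sum (adjusted p = 0.00104). From 12 to 30 h it was -4.08 for THI13 (adjusted p = 0.017) and -4.38 for the family sum (adjusted p = 0.0017). The family sum at both times and THI13 at 20 h were kept without each library. THI4 was lost without replicate 2 of the single culture at 12 h (-1.98, adjusted p = 0.0509), replicate 1 of the single culture at 20 h (-1.83, adjusted p = 0.0784) or mixed-culture replicate 2 at 20 h (-2.005, adjusted p = 0.0703). THI13 at 30 h was lost without any of 4 libraries (-3.73 to -4.12, adjusted p = 0.0509 to 0.109). At 20 and 30 h these values rest on few reads of the THI5 family, 10 and 8 in the mixed cultures of strain 12.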

How the results depend on the processing

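No gene's log2 fold change among the calls changed sign under any alternative run, and 55 of 381 values under alternatives other than leaving out a library missed the threshold, 39 of them with limma. The cause was not tested. The contrast of responses was added after seeing the data. With limma on log2(RPKM + 1), calls numbered 2 (mixed culture, strain 11), 0 (mixed culture, strain 12), 1 (strains, single), 0 (strains, mixed) and 2 (responses), and with log2(RPKM + 0.1) 1, 0, 1, 0 and 1, against 5, 3, 2, 4 and 7. With log2(RPKM + 0.1), calls between times numbered 2 in strain 11 single and 3 in strain 12 mixed culture, against 4 and 5. From 12 to 20 h that fit called 368 of all 3670 genes higher and 434 lower in the first culture. In the second it called 344 higher and 174 lower. Of the list of 26, limma called 1 between strains in each culture under both pseudocounts, against 2 and 2. Without the filter, 5 members were called in strain 12 between cultures, 2 between times in strain 11 mixed and 1 in strain 12 single culture (against 1 and 2), and 8 of the list between strains in mixed culture. Of the 6400 genes then tested, 51 were higher and 29 lower at 20 h between cultures in strain 12, and 18 and 4 at 30 h. From 12 to 20 h these were 91 and 129 in strain 11 mixed culture and 437 and 562 in strain 12 single culture. Between strains in mixed culture they were 73 and 139 at 12 h. DESeq2 called 2 members between times in strain 11 mixed culture and 5 of the list in strain 12 between cultures (against 3) and 5 between strains in mixed culture, and gave no adjusted p for 7 calls. Of all 3670 genes it called 136 higher and 121 lower from 12 to 20 h in strain 11 mixed culture. Between cultures in strain 12 these were 94 and 53, 41 and 69, and 12 and 2 at the successive times. Between strains in mixed culture they were 100 and 128, 15 and 15, and 29 and 56. Fits on the libraries compared called 1 member between strains in single culture, 3 between times in strain 11 mixed, 1 in strain 12 single culture, and 8 of the list between strains in mixed culture. Of all 3670 genes they called 10 higher and 7 lower between strains in single culture at 12 h. From 12 to 20 h these were 226 and 269 in strain 11 mixed and 318 and 348 in strain 12 single culture. Between strains in mixed culture they were 147 and 206, 46 and 61, and 5 and 20. A log2 fold change of at least 1 left 0 calls, and exon counts 1, between times in strain 12 single culture. From 12 to 20 h there, these settings called 470 higher and 435 lower, and 479 and 476, of all 3670 genes. The median of all genes shifted by up to 0.0745 on the log2 scale in the edgeR fit, 0.113 with DESeq2 and 0.356 or 0.395 with limma.

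With the replicate number as a block in fits on the libraries compared, 8 members were called between strains in mixed culture (7 of the list), 3 between times in strain 11 mixed and 1 in strain 12 single culture. Of all 3670 genes these fits called 299 higher and 319 lower between strains in mixed culture at 12 h. From 12 to 20 h they called 225 and 279 in strain 11 mixed and 304 and 348 in strain 12 single culture. In strain 12 mixed culture 1 of the calls between times was then from 20 to 30 h, where the fit without the block had 0. With the block over all 36 libraries no count of calls moved by more than 1.5 times. Outside the strain comparisons at 12 h same-numbered libraries did not deviate together, which does not show that they come from separate fermentations. The study's methods take samples of a fermentation at successive phases and sort both strains from a mixed culture. Libraries of different times, and the strains of a mixed culture, may therefore share a fermentation, which the fits without the block leave out.

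Leaving out each library in turn gave 2 to 6 calls between cultures in strain 11, 1 to 5 in strain 12, 1 to 2 between strains in single and 2 to 5 in mixed culture. Between times it gave 2 to 4 in strain 11 single culture (4 with all libraries) and 1 to 1 in strain 11 mixed culture (1 with all). In strain 12 it gave 1 to 1 in single culture, where all libraries gave 2, and 4 to 5 in mixed culture (5 with all). It gave 0 to 0 for the interaction, 4 to 9 for the responses and 6 to 8 for the THI5 family sum, against 7. For the list it gave 8 to 11, 1 to 4, 1 to 2 and 2 to 5. Of the calls, sums included, 0 of 12 between cultures, 1 of 8 between strains and 9 of 15 between times were kept without each library. Here and above, each call was checked only without libraries of the groups it compares. The other libraries share the estimate of spread. Member calls between strains in single culture, all at 12 h, also fell to 1 without strain 12 single-culture replicate 1 at 20 h or replicate 2 at 30 h. The size of difference that these depths could show was not tested.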
